A study of Mus musculus with 12 samples.

Results

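The histone genes of the mouse were examined in RNA from the CA1 pyramidal layer of mice lacking the DNA glycosylases NEIL1, NEIL2 or both. Members were the rows of the deposited count table whose NCBI Gene ID carries a mouse histone symbol. These were the symbols that begin with H1f, H2ac, H2bc, H3c or H4c, plus H2az1, H2az2, H3f3a and H3f3b. The major histocompatibility genes, whose symbols begin with H2-, were left out. The rule found 60 of the 18558 genes in the table, and 14 of the 74 genes that it finds in RefSeq are not analysed here. Of the 60, 53 belong to the histone clusters (10 on chromosome 3 and 43 on chromosome 13) and 7 are variant genes that lie elsewhere.

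A nucleosome is DNA wound around an octamer of the core histones H2A, H2B, H3 and H4, and a linker histone of the H1 family sits where the DNA enters and leaves. The clustered genes supply most histone protein during S phase; their mRNAs lack introns and, in place of a poly-A tail, end just after a short stem-loop that stem-loop binding protein recognises. Variant genes such as H3f3a, H3f3b, H2az1, H2az2 and H1f0 are transcribed outside S phase as ordinary polyadenylated mRNAs, and they are the main source of new histone in cells that no longer divide, such as neurons. Some clustered genes are also transcribed into polyadenylated mRNA in differentiated cells.

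Poly-A RNA of laser-dissected cells from male C57BL/6N-backcrossed mice, 3 to 6 months old and without any intervention, was sequenced in 12 libraries. The groups were Neil1-/- (n = 2), Neil2-/- (n = 3), Neil1-/-Neil2-/- (n = 2) and wild type (WT, n = 3). The 3 knockout lines lack the gene in every tissue and were bred apart from each other and from the C57BL/6N controls, so genotype and line cannot be told apart. For the other 2 libraries the title and the genotype label disagree; they enter no comparison and are called unassigned. The 10 grouped libraries held 19618923 to 21970180 counts. Neil1 itself stood at 5.97 to 7.67 CPM (counts per 1000000, scaled by TMM) in the 4 libraries labelled as lacking it, against 2.95 to 4.44 CPM in the other 6. A gene's total count cannot tell a deleted exon from a remaining one, so Neil1 does not check these labels. Neil2 had 0 counts in all 5 libraries labelled as lacking it, against 5 to 10 counts in the other 5. The 8 markers of CA1 pyramidal neurons summed to between 5008 and 6292 CPM in all 10 libraries. Some libraries stood apart in RNA of other cells: 6 markers of thalamus and striatum summed to 38.4 CPM in Neil1-/- replicate 1 and to 46.6 and 17.4 CPM in the double knockouts, against 3.59 to 6.26 CPM in the others, and 8 oligodendrocyte markers to 1238 CPM in Neil1-/-Neil2-/- replicate 1, against 493 to 676 CPM in the others.

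The stem-loops of the clustered genes are shown because they mark the transcripts that end without a poly-A tail. The motif searched was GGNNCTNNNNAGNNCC on the transcript strand, kept where the 6 bases on each side pair perfectly around a loop of 4. It lay in the last 100 bases of the annotated transcript of 19 of the 53 clustered genes and of 0 of the 7 variant genes, and anywhere in the transcript of 39 clustered genes. Among 58721 other protein-coding transcripts of the GENCODE annotation, 13 held it in their last 100 bases (0.0221%). Those printed belong to the clustered genes the results turn on, with examples of the other core types for comparison, and lie in GENCODE transcripts on GRCm38. The capitals mark the stem, and the lower case marks the loop.
H2ac23: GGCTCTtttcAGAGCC
H2ac24: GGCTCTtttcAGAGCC
H2ac18: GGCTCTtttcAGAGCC
H4c8: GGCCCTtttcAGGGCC
H4c2: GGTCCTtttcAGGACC
H3c8: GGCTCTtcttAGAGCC
H2bc12: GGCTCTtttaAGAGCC
The H2A genes H2ac18, H2ac23 and H2ac24 carried the same 16 bases, which the H4 gene H4c8 matched in the loop and not in the stem. H3c8, an H3 gene, and H2bc12, an H2B gene, differed from H2ac23 in the loop alone. The poly-A signal AATAAA lay in the last 50 bases of 7 of the 7 variant genes and of 10 of the 53 clustered genes, against 40.6% of the other transcripts. Among the 8 clustered genes with 100 or more counts over the 10 libraries, 3 had the stem-loop in the last 100 bases. These were H2ac18, H2ac23 and H2ac24, whose annotated transcripts ran 35, 31 and 3 bases past it. The poly-A signal was present in 2 of the 8 (H1f2 and H2bc21).

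Reads of the clustered genes were often shared. The table holds estimated counts, for which RSEM divides a read that matches several genes among them, so a value that is not whole points to a divided read. Of the 53 clustered genes, 38 had at least 1 value that was not whole, against 2 of the 7 variant genes. In the median clustered gene 38.5% of all stretches of 100 bases, the read length, also occurred in a transcript of another gene, and in 20 genes more than 50% did. The median for the variant genes was 0%. H2bc21 had no shared stretch and only whole counts. H2ac18, H2ac23 and H2ac24 shared 88.3%, 92.7% and 92.2% of their stretches, and their values are uncertain gene by gene.

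**Figure D1:**
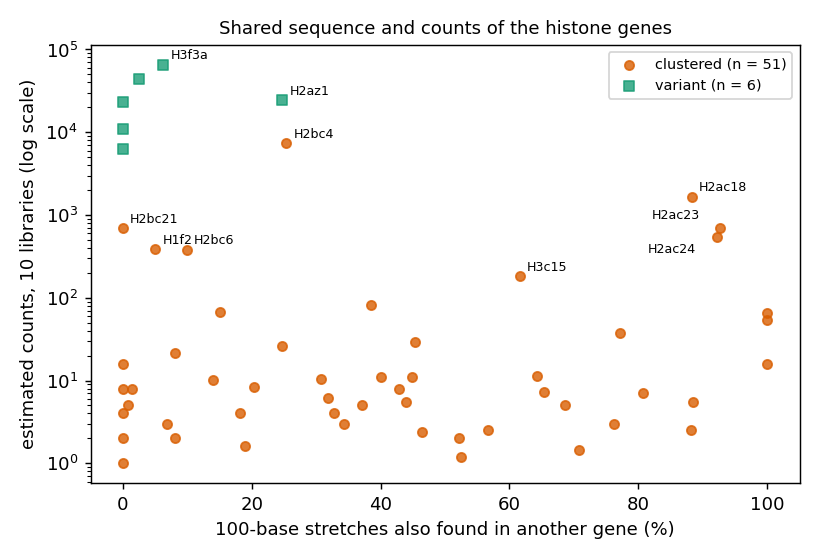
Each point is a histone gene with counts above 0: 51 clustered genes as circles and 6 variant genes as squares. The x axis gives the percentage of the 100-base stretches of its transcripts that also occur in another gene, and the y axis its estimated counts summed over the 10 grouped libraries on a log scale. The variant genes lie at 24.8% or less, while H2ac18, H2ac23 and H2ac24 lie between 88.3% and 92.7%.

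Variant genes held most histone counts in these poly-A libraries. Since the RNA was selected for poly-A tails, clustered mRNAs that end without one could be missed, and the ratios to clustered genes compare poly-A RNA alone. The 7 variant genes summed to 174573 counts over the 10 libraries and the 53 clustered genes to 12557. Per kilobase of transcript, the variant genes stood at 425 CPM and the clustered genes at 66.1 CPM with the longest annotated transcript of each gene, a ratio of 6.43, and the ratio was 13.6 with the median transcript. In bulk RNA, fewer cells of a type and less RNA per cell cannot be told apart. Of the clustered genes, 51 had a count above 0 in at least 1 of the 10 libraries, but 8 of them held 11970 of the 12557 counts. H2bc4 alone gave 59.1%. The other 45 had under 100 counts each over all 10 libraries, with a median of 5.55.

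A test needed enough counts. A filter on low counts, set by library size and group size, kept 17 members: 6 of the 7 variant genes and 11 of the 53 clustered genes (H1f2, H2ac18, H2ac19, H2ac23, H2ac24, H2bc4, H2bc6, H2bc21, H3c14, H3c15 and H4c8). H1f8, the linker histone of the oocyte, had 0 counts in all 10. The 43 genes below the filter had at most 66.5 counts over the 10 libraries, and were not tested.

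Among the variant genes, none passed the test in any genotype. H3f3a and H3f3b encode the same protein, H3.3, the H3 variant that HIRA and the DAXX-ATRX complex deposit outside S phase. H3f3a was at 343 and 333 CPM in Neil1-/-, 268, 337 and 331 CPM in Neil2-/-, and 279 and 302 CPM in Neil1-/-Neil2-/- mice, against 362, 312 and 321 CPM in WT. Both double-knockout libraries lay below all 3 of WT (log2 fold change -0.19, SE 0.10, adjusted p = 0.519 by edgeR's quasi-likelihood test), while the single knockouts overlapped WT. H3f3b was at 217 and 213 CPM in Neil1-/-, 187, 217 and 218 CPM in Neil2-/-, and 222 and 226 CPM in Neil1-/-Neil2-/- mice, against 217, 210 and 206 CPM in WT. It lay above WT in both double-knockout libraries, with a log2 fold change of 0.09 (SE 0.08, adjusted p = 0.718, edgeR).

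H2az1 and H2az2 encode the 2 forms of H2A.Z, which sits in nucleosomes beside transcription start sites. H2az1 was at 129 and 126 CPM in Neil1-/-, 93.8, 115 and 118 CPM in Neil2-/-, and 115 and 126 CPM in Neil1-/-Neil2-/- mice, against 126, 107 and 131 CPM in WT. H2az2 was at 36.4 and 31.3 CPM in Neil1-/-, 22.5, 27.1 and 33.7 CPM in Neil2-/-, and 31.4 and 28.7 CPM in Neil1-/-Neil2-/- mice, against 32.2, 31.7 and 32.3 CPM in WT. Neil2-/- replicate 1 was the lowest library for H2az1 and for H2az2, and the Neil2-/- and WT libraries overlapped for each of them. The log2 fold changes in Neil2-/- mice were -0.15 (SE 0.10) for H2az1 and -0.21 (SE 0.13) for H2az2, with adjusted p of 0.653 and 0.638 (edgeR).

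H1f0, which accumulates in non-dividing cells, and H1f10 encode linker histones. H1f0 varied least of all variant genes, between 104 and 118 CPM over the 10 libraries, with log2 fold changes between -0.03 and 0.05 in the 3 knockouts. H1f10 was at 50.5 and 59.1 CPM in Neil1-/-, 55.0, 57.3 and 61.4 CPM in Neil2-/-, and 51.6 and 57.6 CPM in Neil1-/-Neil2-/- mice, against 37.5, 50.1 and 49.6 CPM in WT. All 7 grouped knockout libraries lay above all 3 of WT, by 0.26 (SE 0.12) on the log2 scale in Neil1-/- mice, 0.34 (SE 0.11) in Neil2-/- mice and 0.26 (SE 0.12) in the double knockouts. Taken singly, the 3 comparisons had no overlap with WT in 26.5%, 15.2% and 28.7% of all genes. The share of all genes with all 7 libraries above WT was not counted. For H1f10, Neil1-/- replicate 1 (50.5 CPM) lay barely above WT replicate 2 (50.1 CPM). No difference passed the test (adjusted p = 0.571, 0.332 and 0.475, edgeR), and the 3 comparisons share the WT libraries, of which WT replicate 1 was the lowest for H1f10. Unassigned replicate 1, at 45.7 CPM, lay within the WT range, and unassigned replicate 2, at 55.5 CPM, lay above it.

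**Figure D2:**
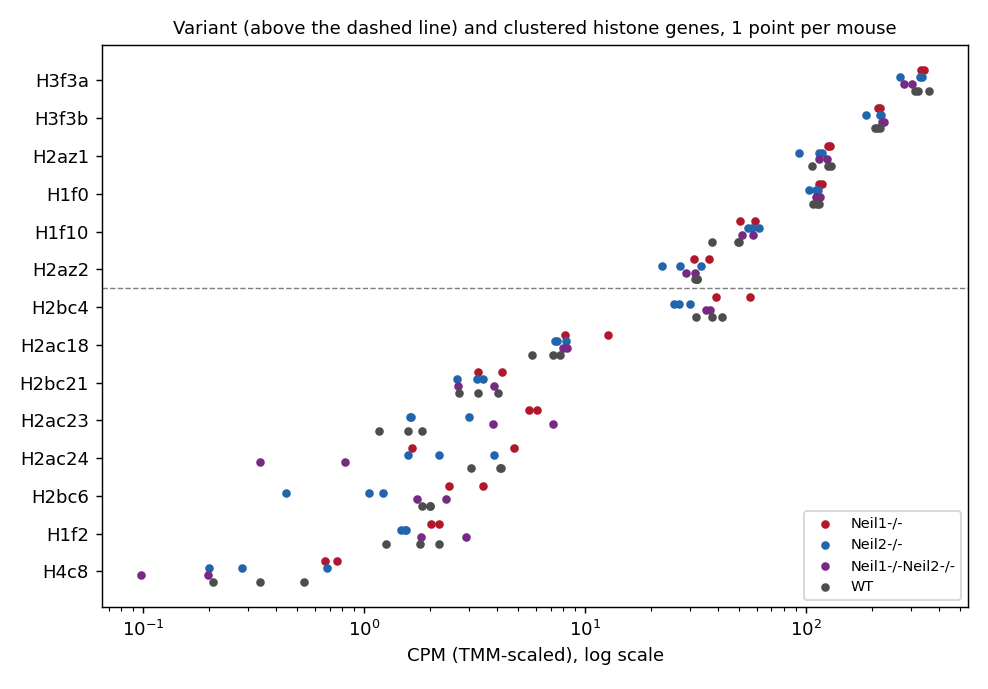
Each row is a histone gene and each point 1 mouse, with the level in CPM on a log scale; red is Neil1-/-, blue Neil2-/-, purple Neil1-/-Neil2-/- and grey WT. The 6 variant genes stand above the dashed line and 8 clustered genes below it; levels are not per length, so points are read within a row. H2ac23 shows the 2 Neil1-/- and the 2 Neil1-/-Neil2-/- mice to the right of the other 6.

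H2ac23, a clustered H2A gene, was the one histone gene that passed the test in a comparison with WT. It lies on chromosome 13 at chr13:21810367-21810918 (GRCm38) and was higher in Neil1-/- and in Neil1-/-Neil2-/- mice than in WT. Its levels were 6.07 and 5.58 CPM in Neil1-/-, 2.99, 1.62 and 1.63 CPM in Neil2-/-, and 7.16 and 3.84 CPM in Neil1-/-Neil2-/- mice, against 1.17, 1.84 and 1.59 CPM in WT. The 4 libraries without NEIL1 all lay above the other 6, a pattern that 147 of the 13982 genes tested showed (1.05%). H2ac23 rose by 1.92 (SE 0.33) on the log2 scale in Neil1-/- mice (adjusted p = 0.0457) and by 1.84 (SE 0.34) in Neil1-/-Neil2-/- mice (adjusted p = 0.0452, edgeR's quasi-likelihood test). In Neil2-/- mice the log2 fold change was 0.44 (SE 0.33, adjusted p = 0.716). The test of any difference among the 4 genotypes gave an adjusted p of 0.0198.

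The near-identical copy of H2ac23 had another pattern. H2ac24, at chr13:21833024-21833475, encodes the same histone type, and its annotated transcript of 482 bases and that of H2ac23, of 480 bases, are identical over 452 bases. Only 28 bases at the 3′ end of H2ac23 and 30 bases at the 5′ end of H2ac24 tell the GENCODE transcripts apart, and RefSeq spans 552 and 452 bases for H2ac23 and H2ac24. Which transcripts RSEM was given is not stated in the sources used here. H2ac24 was at 1.65 and 4.80 CPM in Neil1-/-, 1.59, 2.18 and 3.89 CPM in Neil2-/-, and 0.341 and 0.82 CPM in Neil1-/-Neil2-/- mice, against 4.20, 3.06 and 4.14 CPM in WT. Both double-knockout libraries lay below all others, with a log2 fold change against WT of -2.68 (SE 0.56, adjusted p = 0.0749, edgeR; 0.000253 with DESeq2). H2ac23 took 78.7% and 53.8% of the counts of the pair in Neil1-/-, 65.3%, 42.6% and 29.5% in Neil2-/-, and 95.5% and 82.4% in Neil1-/-Neil2-/- mice, against 21.8%, 37.6% and 27.7% in WT.

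Summed over both copies, a total that does not depend on how reads were divided between them, the levels came closer together. The pair stood at 7.72 and 10.4 CPM in Neil1-/-, 4.58, 3.80 and 5.52 CPM in Neil2-/-, and 7.50 and 4.66 CPM in Neil1-/-Neil2-/- mice, against 5.37, 4.91 and 5.73 CPM in WT. The 2 Neil1-/- libraries lay above WT by 0.76 on the log2 scale (SE 0.23, adjusted p = 0.395, edgeR), which did not pass the test. The double-knockout libraries lay on both sides of WT, with a log2 fold change of 0.19 (SE 0.23, adjusted p = 0.823), and in Neil2-/- mice it was -0.21 (SE 0.21, adjusted p = 0.811). With the copies summed, no member was called against WT in any of the 3 knockouts.

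**Figure D3:**
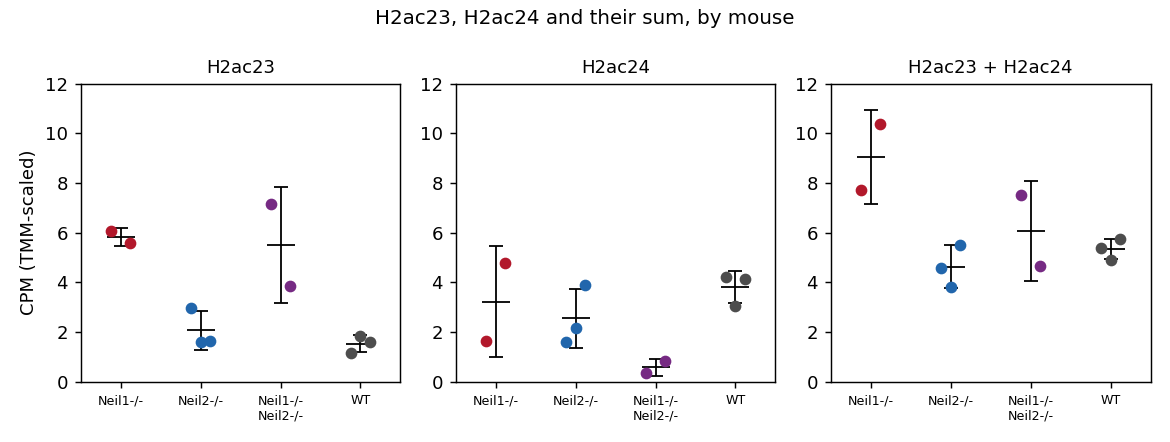
The 3 panels give the CPM of H2ac23, of H2ac24 and of their sum in each of the 10 mice; points are mice, and the black bar and whiskers are the group mean and SD. H2ac23 is higher in the 4 mice without NEIL1 (3.84 to 7.16 CPM) than in the others, H2ac24 is lowest in the 2 Neil1-/-Neil2-/- mice, and the sum of the double knockouts (7.50 and 4.66 CPM) lies on both sides of WT.

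The call of H2ac23 rested on few libraries. In Neil1-/- mice the adjusted p of H2ac23 was 0.0542 with limma voom. It was 0.121 and 0.155 without Neil1-/- replicate 1 and 2, 0.0738 and 0.0642 without Neil2-/- replicate 2 and 3, and 0.154, 0.128 and 0.159 without WT replicate 1, 2 and 3. The log2 fold changes in these 8 alternatives were 1.76 to 2.07, against 1.92 with all libraries. In Neil1-/-Neil2-/- mice the log2 fold change was 1.33 (adjusted p = 0.556) without double-knockout replicate 1, and the adjusted p was 0.0636 and 0.056 without Neil2-/- replicate 2 and 3, and 0.197, 0.0977 and 0.106 without WT replicate 1, 2 and 3. Over all alternatives the adjusted p of H2ac23 ranged between 0.000152 and 0.395 in Neil1-/- and between 0.000286 and 0.823 in Neil1-/-Neil2-/- mice, and the fold change stayed above 0, with its lowest values (0.76 and 0.19) where the copies were summed. Without Neil1-/- replicate 2 and Neil1-/-Neil2-/- replicate 1 together, the log2 fold change of H2ac23 was 1.98 (adjusted p = 0.0558) in Neil1-/- mice and 1.33 (adjusted p = 0.474) in the double knockouts. The 6 markers of thalamus and striatum, none of them at 0 in all 10 libraries, were high in 3 of the 4 libraries with high H2ac23. In the other one, Neil1-/- replicate 2, they summed to 4.37 CPM, within the WT range of 3.78 to 6.26 CPM, and H2ac23 was at 5.58 CPM. The part of such tissue in the level of H2ac23 was not tested.

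Against WT, 1 of the 17 members tested passed at an adjusted p under 0.05 in Neil1-/- mice, where 0.2% of the 13982 genes tested did. At an unadjusted p under 0.05 there were 3 members (8.98% of all genes). In Neil2-/- mice 0 of 17 passed, against 0.3% of all genes; 4 members had an unadjusted p under 0.05 (9.65% of all genes did), and DESeq2, which called 1.13% of all genes, and limma voom also called 0 members. In Neil1-/-Neil2-/- mice 1 of 17 passed, against 0.322% of all genes, and 2 had an unadjusted p under 0.05 (11.1% of all genes). For any difference among the 4 genotypes, 1 of 17 passed, against 1.24%, and 4 had an unadjusted p under 0.05 (16.3%). DESeq2 called 1, 2 and 4 members in Neil1-/- mice, in Neil1-/-Neil2-/- mice and among the 4 genotypes, where it called 0.615%, 1.33% and 6.23% of all genes. For the interaction, the departure of the double knockout from the sum of both single knockouts, 0 of 17 passed (0.093% of all genes), 3 had an unadjusted p under 0.05 (5.52%), and DESeq2 (0.215% of all genes) and limma voom called 0. A count of 1 in 17 is too small to be set against these shares. The libraries of 6 members in Neil1-/- mice, 3 in Neil2-/- mice and 8 in the double knockouts did not overlap those of WT, where 26.5%, 15.2% and 28.7% of all genes did not. The 4 libraries without NEIL1 lay below the other 6 for 0 of 17 members (1.3% of all genes).

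**Figure D4:**
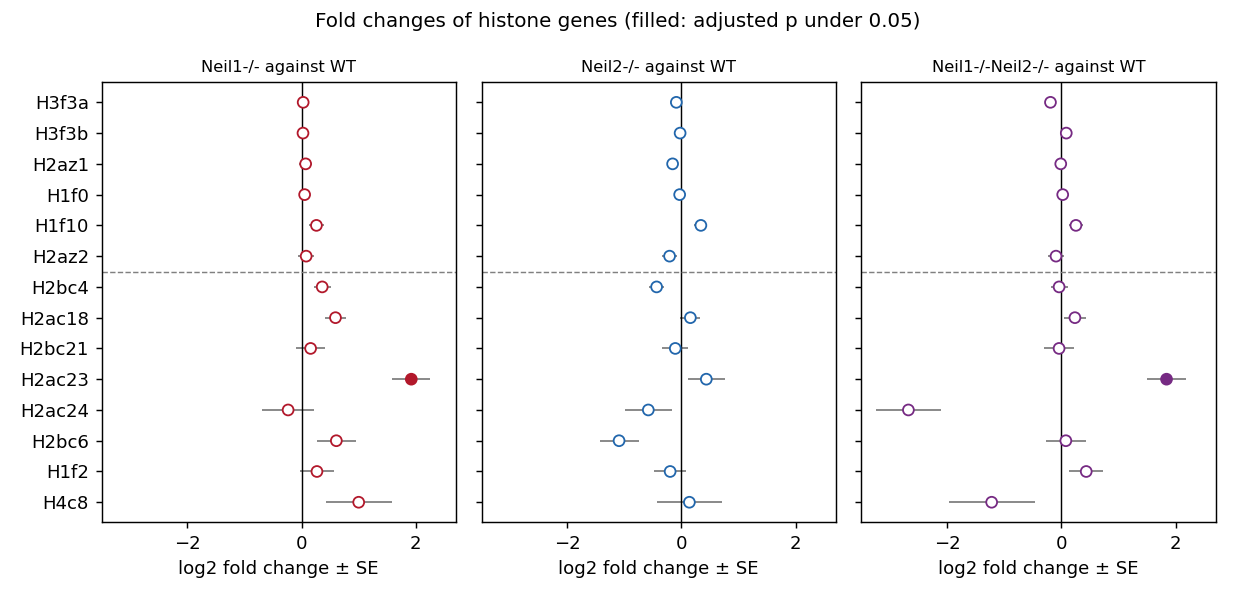
The 3 panels give the log2 fold change against WT with its SE for 14 of the 17 genes tested, in Neil1-/-, Neil2-/- and Neil1-/-Neil2-/- mice; variant genes stand above the dashed line. H2ac19, H3c14 and H3c15 are left out because they were at 0 in 6, 8 and 2 of the 10 libraries. Filled points passed the test at an adjusted p under 0.05: H2ac23 in Neil1-/- (1.92) and Neil1-/-Neil2-/- mice (1.84).

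The H2A genes H2ac18 and H2ac19, on chromosome 3, share their reads. H2ac18 was at 8.15 and 12.7 CPM in Neil1-/-, 7.46, 7.34 and 8.27 CPM in Neil2-/-, and 8.00 and 8.28 CPM in Neil1-/-Neil2-/- mice, against 7.17, 5.79 and 7.73 CPM in WT. Both Neil1-/- libraries and both double-knockout libraries lay above WT, with log2 fold changes of 0.59 (SE 0.19, adjusted p = 0.429) and 0.24 (SE 0.19, adjusted p = 0.7, edgeR). For H2ac18 in Neil1-/- mice the value was 0.25 without Neil1-/- replicate 2 and 0.89 without Neil1-/- replicate 1. H2ac19, whose transcript of 528 bases lies entirely within that of H2ac18, received counts in 4 libraries alone: 13 in a Neil1-/- library, 13 in a double-knockout library, and 13.2 and 26.6 in 2 WT libraries. Summed, H2ac18 and H2ac19 were at 8.77 and 12.7 CPM in Neil1-/-, 7.46, 7.34 and 8.27 CPM in Neil2-/-, and 8.00 and 8.91 CPM in Neil1-/-Neil2-/- mice, against 7.17, 6.43 and 8.98 CPM in WT. Neil1-/- replicate 1 and both double knockouts then lay within the WT range, with log2 fold changes of 0.51 (SE 0.19, adjusted p = 0.491) in Neil1-/- and 0.17 (SE 0.19, adjusted p = 0.794, edgeR) in Neil1-/-Neil2-/- mice.

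H2bc4 was the most abundant clustered gene by counts. It encodes an H2B and lies at chr13:23684199-23692480; 25.4% of its stretches of 100 bases were shared, and its annotated transcript had neither the stem-loop nor AATAAA near its end. It was at 39.2 and 56.0 CPM in Neil1-/-, 26.8, 25.3 and 30.1 CPM in Neil2-/-, and 35.4 and 36.7 CPM in Neil1-/-Neil2-/- mice, against 37.6, 31.8 and 41.6 CPM in WT. All 3 Neil2-/- libraries lay below WT, by a log2 fold change of -0.43 (SE 0.13, adjusted p = 0.298, edgeR), and Neil1-/- replicate 2 was the highest library. In Neil1-/- mice the log2 fold change was 0.36 (SE 0.15, adjusted p = 0.532), and in Neil1-/-Neil2-/- mice -0.04 (SE 0.15, adjusted p = 0.955).

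H2bc6, another H2B gene of the chromosome 13 cluster, was likewise highest on average in Neil1-/- and lowest in Neil2-/- mice. H2bc6 shared 9.93% of its stretches of 100 bases, some of them with H2bc4, and none of its values in the 10 libraries was whole. It was at 3.48 and 2.42 CPM in Neil1-/-, 1.22, 1.06 and 0.443 CPM in Neil2-/-, and 2.36 and 1.74 CPM in Neil1-/-Neil2-/- mice, against 1.99, 1.99 and 1.83 CPM in WT. The Neil2-/- libraries lay below and the Neil1-/- libraries above all 3 of WT, with log2 fold changes of -1.09 (SE 0.34, adjusted p = 0.302) and 0.61 (SE 0.34, adjusted p = 0.622, edgeR). H2bc21, on chromosome 3, encodes an H2B known from olfactory neurons. It was at 3.29 and 4.22 CPM in Neil1-/-, 3.26, 3.45 and 2.64 CPM in Neil2-/-, and 3.88 and 2.66 CPM in Neil1-/-Neil2-/- mice, against 3.29, 2.71 and 4.07 CPM in WT. All groups overlapped for H2bc21, the one clustered gene among the 8 with most counts that shared no stretch with another gene.

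Set against each other in the same fit, a comparison added after the data were seen, the single knockouts differed in 3 members of 17, where 3.06% of all genes passed. DESeq2 also called 3 (7.19% of all genes), and 4 had an unadjusted p under 0.05 (19.4%). H2bc4, H2bc6 and H2ac23 were each higher in Neil1-/- than in Neil2-/- mice. H2bc4 and H2bc6 share some stretches of sequence, and the sum of these genes was not tested. By edgeR the log2 difference was 0.80 (SE 0.15, adjusted p = 0.0202) for H2bc4 and 1.70 (SE 0.36, adjusted p = 0.0328) for H2bc6. For H2ac23 it was 1.49 (SE 0.33, adjusted p = 0.036, edgeR). H2ac23 and H2ac24 summed were also higher, by 0.97 (SE 0.23, adjusted p = 0.0436). H2bc4 no longer passed without Neil1-/- replicate 2 (0.53, adjusted p = 0.186), Neil2-/- replicate 1 (0.78, adjusted p = 0.0595) or Neil2-/- replicate 2 (0.74, adjusted p = 0.0677). Without any 1 of the 5 single-knockout libraries H2bc6 no longer passed, with log2 differences of 1.38 to 1.98 and adjusted p between 0.0517 and 0.111. H2ac23 no longer passed without either Neil1-/- library or without Neil2-/- replicate 2 or 3, with adjusted p between 0.0792 and 0.165. Without Neil1-/- replicate 2 and Neil1-/-Neil2-/- replicate 1 together none of the 3 passed: H2bc4 was at 0.52 (adjusted p = 0.212), H2bc6 at 1.94 (0.072) and H2ac23 at 1.54 (0.105).

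The remaining H1, H3 and H4 genes had few counts. H1f2, the linker histone gene with most of the clustered H1 counts, was at 2.19 and 2.01 CPM in Neil1-/-, 1.54, 1.55 and 1.47 CPM in Neil2-/-, and 2.90 and 1.82 CPM in Neil1-/-Neil2-/- mice, against 2.18, 1.79 and 1.26 CPM in WT, with all groups overlapping WT. H1f4 had at most 4 and H1f3 at most 3 counts in a library. H3c13, H3c14 and H3c15 encode the same H3 protein and share sequence; H3c14 had 33 counts in a double-knockout library and 21.4 in a WT library, the same 2 libraries in which H3c15 had 0, and 0 counts in the other 8. Summed, the 3 copies were at 1.91 and 2.61 CPM in Neil1-/-, 1.07, 0.799 and 0.88 CPM in Neil2-/-, and 1.62 and 0.689 CPM in Neil1-/-Neil2-/- mice, against 1.16, 1.35 and 1.26 CPM in WT. The Neil1-/- libraries lay above and the Neil2-/- libraries below WT, with log2 fold changes of 0.84 (SE 0.35, adjusted p = 0.539) and -0.45 (SE 0.35, adjusted p = 0.722, edgeR).

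H4c8 was the H4 gene with most counts. It had 14 and 15.1 counts in Neil1-/-, 6, 4 and 13.9 counts in Neil2-/-, and 2 and 4 counts in Neil1-/-Neil2-/- mice, against 11.1, 7 and 4.46 counts in WT. Its log2 fold changes were 1.001 (SE 0.57) in Neil1-/-, 0.14 (SE 0.56) in Neil2-/- and -1.22 (SE 0.75) in Neil1-/-Neil2-/- mice, none past the test (adjusted p = 0.631, 0.973 and 0.585, edgeR). H4c9 had 21.7 counts in Neil1-/- replicate 2 and at most 9 in every other grouped library, and H4c4 had at most 5.

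Summed by histone type, totals that do not depend on how reads were divided within a type, the clustered genes had their highest group mean in Neil1-/- mice for H2A, H2B, H3 and H4, and in Neil1-/-Neil2-/- mice for H1. The H2A and H2B sums were not whole in some libraries, which points to reads also divided with genes outside the type. Clustered H2A summed to 16.9 and 23.5 CPM in Neil1-/-, 12.3, 11.4 and 13.8 CPM in Neil2-/-, and 15.9 and 13.99 CPM in Neil1-/-Neil2-/- mice, against 12.6, 11.5 and 15.2 CPM in WT. Clustered H2B summed to 46.5 and 63.1 CPM in Neil1-/-, 31.6, 30.2 and 33.6 CPM in Neil2-/-, and 42.0 and 41.6 CPM in Neil1-/-Neil2-/- mice, against 43.0, 36.8 and 48.0 CPM in WT; 86.6% of its counts came from H2bc4. All clustered genes summed to 69.6 and 94.2 CPM in Neil1-/-, 47.3, 44.8 and 51.4 CPM in Neil2-/-, and 63.2 and 59.1 CPM in Neil1-/-Neil2-/- mice, against 60.4, 52.5 and 67.1 CPM in WT. Both Neil1-/- libraries were above and all 3 Neil2-/- libraries below WT for this sum, and the double knockouts were within the WT range. These sums are descriptions and carry no test.

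Relative to the WT mean, the sum of all clustered genes was 1.36 ± 0.29 in Neil1-/- (SD, n = 2), 0.797 ± 0.0556 in Neil2-/- (SD, n = 3) and 1.02 ± 0.0476 in Neil1-/-Neil2-/- mice (SD, n = 2). By type, the ratio in Neil1-/- mice ran between 1.20 for H1 and 2.21 for H4, in Neil2-/- mice between 0.677 for H3 and 0.954 for H2A, and in Neil1-/-Neil2-/- mice between 0.665 for H4 and 1.33 for H1. The sum of the variant genes stood at 1.04 ± 0.00764 in Neil1-/- (SD, n = 2), 0.965 ± 0.0853 in Neil2-/- (SD, n = 3) and 0.977 ± 0.0287 in Neil1-/-Neil2-/- mice (SD, n = 2). Among the members tested, 14 of 17 log2 fold changes were positive in Neil1-/- mice and 12 of 17 were negative in Neil2-/- mice, with medians of 0.16 and -0.11; the medians over all genes tested were 0.00395 and -0.00227. In Neil1-/-Neil2-/- mice 8 of 17 were positive, with a median of -0.01 against 0.00374 over all genes. These comparisons share the WT libraries.

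**Figure D5:**
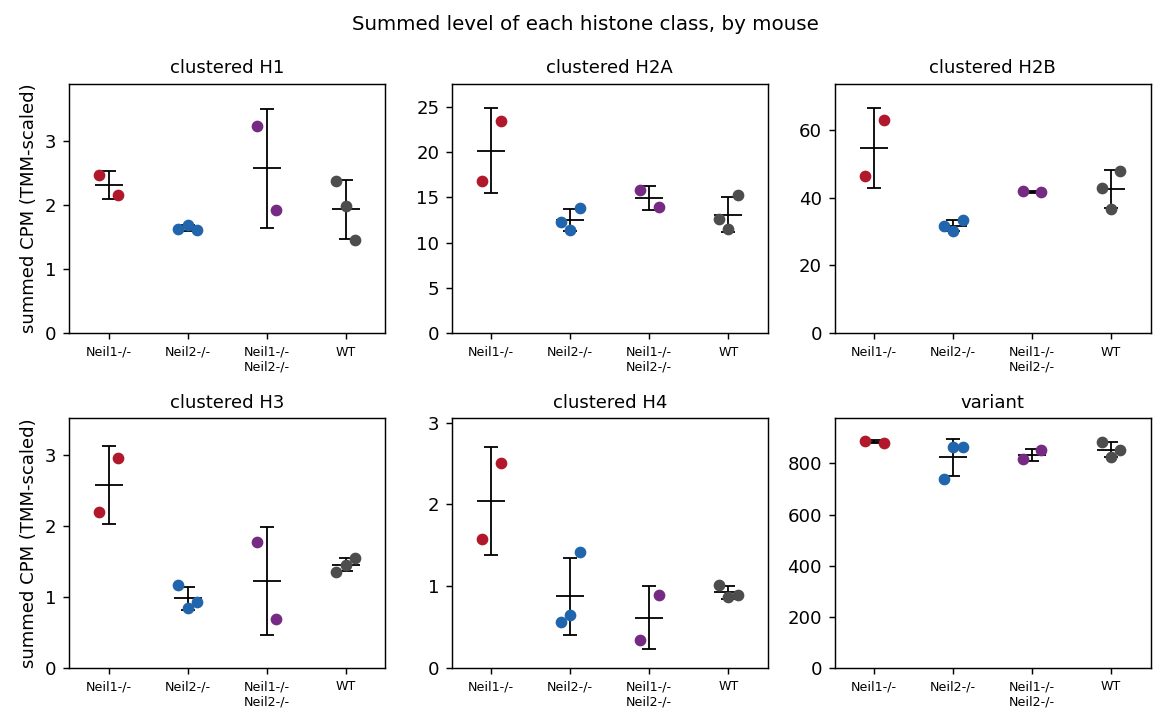
Each panel gives the summed CPM of a histone class in the 10 mice; points are mice, and the black bar and whiskers are the group mean and SD. The Neil1-/- mice are highest for clustered H2A, H3 and H4, the 3 Neil2-/- mice (30.2 to 33.6 CPM) lie below the WT mice for clustered H2B, and all groups overlap WT for the variant genes.

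Of the markers of dividing progenitors, Mki67, Top2a and Eomes were near 0. Mki67, carried by cycling cells, had 1 to 6 counts and Top2a, a topoisomerase of S phase and mitosis, 0 to 4 counts in each of the 10 libraries, and Eomes, a marker of intermediate progenitors, was at 0 in 8 of 10. The 5 markers of dividing progenitors summed to 10.5 and 18.3 CPM in Neil1-/-, 8.04 to 9.13 CPM in Neil2-/-, and 12.4 and 9.41 CPM in Neil1-/-Neil2-/- mice, against 10.4 to 12.2 CPM in WT. Nearly all of this was Sox11 and Dcx, which young neurons express: Sox11 was at 8.24 and 13.2 CPM in Neil1-/-, 3.996 to 5.38 CPM in Neil2-/-, and 6.92 and 5.32 CPM in Neil1-/-Neil2-/- mice, against 5.46 to 8.04 CPM in WT. Dcx did not follow the clustered sums: it was at 2.14 and 4.97 CPM in Neil1-/-, 2.74 to 4.52 CPM in Neil2-/-, and 4.96 and 3.79 CPM in Neil1-/-Neil2-/- mice, against 3.97 to 4.54 CPM in WT, with Neil1-/- replicate 1 the lowest of the 10 libraries. The 6 markers of dentate gyrus and CA3 summed to 52.1 and 36.5 CPM in Neil1-/-, 18.6 to 28.3 CPM in Neil2-/-, and 40.2 and 26.7 CPM in Neil1-/-Neil2-/- mice, against 21.8 to 33.7 CPM in WT. The 2 Neil1-/- sums rested on different markers. In Neil1-/- replicate 1 and 2, Prox1 was at 11.6 and 3.16 CPM, C1ql2 at 6.29 and 0.301 CPM, and Grik4 at 5.38 and 18.3 CPM. The part of these markers in the clustered sums was not tested. The 18 genes of S phase and mitosis summed to 169 and 162 CPM in Neil1-/-, 150.2 to 161 CPM in Neil2-/-, and 151 and 162 CPM in Neil1-/-Neil2-/- mice, against 152 to 164 CPM in WT. Most of this was Pcna, the sliding clamp of replication and repair (57.5 to 66.3 CPM), and Tyms, which makes thymidylate (32.0 to 48.0 CPM). Of the 18, 13 were tested and 0 passed in any comparison by edgeR, DESeq2 or limma voom. In Neil1-/-Neil2-/- mice the log2 fold change of E2f1, a transcription factor of S-phase entry, was 0.52 (adjusted p = 0.474, edgeR). In Neil2-/- mice it was -1.01 (adjusted p = 0.493) for Cdc6, which loads the replicative helicase, and -0.43 (adjusted p = 0.498, edgeR) for Mcm2, a subunit of that helicase.

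The genes that process, carry and deposit histones did not pass edgeR's test either. Of 32 such genes, 31 were tested and 0 passed against WT in any knockout by edgeR, DESeq2 or limma voom. For any difference among the 4 genotypes DESeq2 called 1, where it called 6.23% of all genes. In edgeR, 2 had an unadjusted p under 0.05 in Neil1-/- mice, 2 in Neil2-/- mice and 3 in the double knockouts. The shares of all genes were 8.98%, 9.65% and 11.1%. Slbp, which encodes stem-loop binding protein, had a log2 fold change of 0.26 (SE 0.11, adjusted p = 0.54) in Neil1-/- mice. Lsm11, a protein of the U7 particle that cuts the 3′ end of clustered histone mRNA, had 0.65 (SE 0.18, adjusted p = 0.246) in Neil2-/- and 0.57 (SE 0.20, adjusted p = 0.33) in Neil1-/-Neil2-/- mice. Asf1a, a chaperone of H3 and H4, had -0.46 (SE 0.13, adjusted p = 0.252) in Neil2-/- mice. Anp32e, which removes H2A.Z from nucleosomes, had 0.18 (SE 0.08, adjusted p = 0.396, edgeR) in Neil1-/-Neil2-/- mice.

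Of 13 other histone genes, whose symbols the rule for members does not cover, 7 were tested and 0 passed by edgeR or limma voom in any comparison. DESeq2 called 1 in Neil2-/- mice and 2 among the 4 genotypes, where it called 1.13% and 6.23% of all genes. Macroh2a1, an H2A variant with a large macro domain, had a log2 fold change of -0.31 (SE 0.07, adjusted p = 0.103, edgeR) in Neil2-/- mice. H2aw, an H2A gene outside the 2 large clusters, had -0.54 (SE 0.17, adjusted p = 0.246) in Neil1-/-Neil2-/- and -0.31 (SE 0.15, adjusted p = 0.538) in Neil2-/- mice. H2ax, whose product is phosphorylated at DNA breaks, had 0.14 (SE 0.08, adjusted p = 0.628, edgeR) in Neil2-/- mice.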

How the data were processed

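The authors deposited estimated counts per gene, made from poly-A RNA by RSEM on Bowtie2 alignments to GRCm38 and not normalized; per the labels, HISAT, StringTie and GATK were also used, without versions. Of the values, 87.8% were whole within 1e-09. Counts were rounded and fitted by the quasi-likelihood model of edgeR 4.0.16 under R 4.3.3, with TMM factors, 1 mean per genotype and genes kept by filterByExpr at a minimum of 10 counts; 2-sided p were adjusted by Benjamini-Hochberg over 13982 genes and called under 0.05. Names and positions came from RefSeq (GRCm38.p6), transcripts from GENCODE. All 10 libraries entered 1 fit. The p-values measure the spread between these libraries, each taken to be 1 mouse. Alternatives were DESeq2 1.42.0, the tool of the study's own analysis, limma voom 3.58.1, median-ratio scaling, no filter, a replicate block, only the groups compared, a threshold of 0.1, whole-count members alone, and each library left out. In a further one, 2 doubted libraries, Neil1-/- replicate 2 and Neil1-/-Neil2-/- replicate 1, were left out together. The study excluded 2 outlier samples from its group comparison, and its text does not say which. Near-identical copies summed and the comparison of the single knockouts were added after the data were seen.

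Named were members called in any comparison, variant genes with counts, the 3 most abundant clustered genes of each type, the 3 highest and lowest fold changes against WT, and members of counts of 5 or fewer; of other lists, called genes and up to 4 with the smallest p. Members and lists were chosen with earlier results of these data known. The test was checked on simulated counts. Tables and plots used Python 3.11.15, pandas 2.3.3 and matplotlib 3.10.9.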

Additional observations from a re-analysis of the deposited data

Results flagged for a closer look

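The single knockouts differed in 3 histone genes, in a comparison added after the data were seen. Of these, H2bc4 and H2bc6 share some stretches of sequence. In the direct comparison of Neil1-/- with Neil2-/- mice the log2 difference was 0.80 for H2bc4, 1.70 for H2bc6 and 1.49 for H2ac23, each past an adjusted p of 0.05 in edgeR's quasi-likelihood test, which itself tests the difference between the single knockouts. All 3 were higher in Neil1-/- than in Neil2-/- mice, and 2 of the 3 were called against WT in neither single knockout. Leaving out a single library ended each call for some library, for H2bc6 with any of the 5 single-knockout libraries, and line and genotype cannot be told apart.

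H2ac23 was also above its WT range (1.17 to 1.84 CPM) in both unassigned libraries, which no comparison used. It was at 4.26 CPM in unassigned replicate 1 and at 3.48 CPM in unassigned replicate 2. Title and genotype label of these libraries disagree, but each names a genotype without NEIL1. Neil2 had 3 counts in unassigned replicate 1 and 0 in unassigned replicate 2. Every grouped library labelled as lacking NEIL2 had 0. Neil1 was at 7.12 and 6.72 CPM, within the 5.97 to 7.67 CPM of the grouped libraries labelled as lacking NEIL1. In the unassigned libraries H2ac23 took 77.5% and 66.9% of the counts of H2ac23 and H2ac24. The sum of the pair was 5.49 and 5.20 CPM, within the WT range of 4.91 to 5.73 CPM.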

How the results depend on the processing

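Counts of members called against WT were small and moved with most choices. In Neil1-/- mice 1 was called and 0 with limma voom, with the replicate block, without Neil1-/- replicate 2 and Neil1-/-Neil2-/- replicate 1 together, with near-identical copies summed and among whole-count members, which leave out H2ac23 and so had to give 0, and 0 to 1 with any library left out. In Neil1-/-Neil2-/- mice 1 was called and 0 under those same 5 choices, 2 without the filter, with DESeq2, with only the groups compared and at a threshold of 0.1, and 0 to 2 with any library left out. For any difference among genotypes 1 was called, and 4 without the filter or with DESeq2, 2 at a threshold of 0.1, 0 with the block, without both libraries, with copies summed and among whole-count members, and 0 to 3 with any library left out. In Neil2-/- mice and for the interaction the block also gave 0. Same-numbered libraries did not deviate together (13 pairs, r of -0.17 to 0.19, 1 over 0.1), and 4 of 10 libraries correlated best with their own number. So few mice per group cannot decide whether the numbers pair the mice. The causes of these changes were not tested.

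Without members whose counts were not whole, the ratio to WT in Neil1-/-, Neil2-/- and Neil1-/-Neil2-/- mice was 3.00, 0.525 and 0.773 for clustered H2A, where H2ac21 alone was left, with 8 counts over the 10 libraries; 21 counts were left for H3 and 28 for H4, so none of these 3 checks its class. In Neil2-/- mice it was 0.955 for H2B and for all clustered genes, 0.244 for H3 and 1.71 for H4, in the double knockouts 0.988 for H2B and 1.29 for H4, and for the variant genes 1.05 in Neil1-/- and 1.05 in Neil1-/-Neil2-/- mice. Without the most abundant member, it was 0.679 for H1, 0.776 for H2A, 0.794 for H2B, 0.256 for H3 and 0.889 for all clustered genes in Neil2-/- mice, 0.802 for H3 in Neil1-/- mice, 1.03 for H2B and 1.09 for all clustered genes in the double knockouts, and 1.05 and 1.04 for the variant genes in Neil1-/- and Neil1-/-Neil2-/- mice.

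Log2 fold changes changed sign in 35 cases, none of a difference called here. With copies summed they were -0.21 for H2ac23 and -0.45 for H3c15 in Neil2-/- mice, and for H2ac24 0.76 in Neil1-/- and 0.19 in Neil1-/-Neil2-/- mice. In the double knockouts the block gave 0.0495 for H2az1, 0.0424 for H2bc4 and -0.13 for H2bc6, and leaving out both libraries gave 0.05004 for H2az1, -0.00583 for H1f0 and -0.16 for H2bc6. Leaving out both also gave -0.0309 for H2bc21 in Neil1-/- mice and -0.61 for H2ac24 between the single knockouts. With any library left out, the values in Neil1-/- mice were -0.0134 to 0.0961 for H3f3a, -0.0109 to 0.13 for H2az1, -0.0287 to 0.20 for H2az2, -1.18 to 0.35 for H2ac24 and -0.0213 to 0.33 for H2bc21. In Neil2-/- mice they were -0.15 to 0.0145 for H3f3a, -0.0599 to 0.0525 for H3f3b, -0.0548 to 0.00788 for H1f0, -0.24 to 0.0574 for H2bc21, -0.36 to 0.86 for H3c15 and -0.53 to 0.56 for H4c8. In the double knockouts they were -0.0923 to 0.05001 for H2az1, -0.00586 to 0.0518 for H1f0, -0.14 to 0.0532 for H2bc4, -0.34 to 0.20 for H2bc21 and -0.16 to 0.28 for H2bc6. Between the single knockouts they were -0.18 to 0.0412 for H1f10, -0.0241 to 0.0884 for H3f3b and -0.59 to 0.93 for H2ac24. Of the other gene-level alternatives, 984 kept their direction and their side of the threshold, 38 lost a call and 6 gained a call. The 43 genes under the filter were not tested.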

Other observations

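In the 2 unassigned libraries the clustered genes summed to 69.3 CPM in unassigned replicate 1 and to 57.4 CPM in unassigned replicate 2, and the variant genes to 854 and 868 CPM. H2bc4 was at 42.5 and 35.8 CPM, H2bc6 at 2.86 and 1.84 CPM, H2ac24 at 1.24 and 1.72 CPM and H1f10 at 45.7 and 55.5 CPM in unassigned replicate 1 and 2. H1f8, at 0 in all 10 grouped libraries, had 1 count in unassigned replicate 1.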
